A study of Homo sapiens with 12 samples.

Results

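The experiment compared HCT116 cells held for 24 h in medium without cystine with HCT116 cells kept in full medium for the same time. HCT116 is an established human colorectal carcinoma line, labelled WT in genotype, and every sample came from this line. The series has 12 RNA-seq samples, and the 6 columns labelled control or cystine deprivation at 24 h are described here, with 3 samples in each group. The other 6 samples are the same media at 48 h. They serve for a comparison of times and also enter the shared fit that gives the 24 h p-values. All groups had DMEM with 10% fetal bovine serum and antibiotics. The deprived cells were also washed and given fresh medium on the day the deprivation began, a step the labels do not give for the controls, so the loss of cystine and the change of medium cannot be told apart. Whether the 3 samples in each group were grown as separate cultures is not given in the labels. The p-values therefore measure the spread of the 12 samples in the fit alone, and that spread may be technical. Of 60671 rows with a gene name in the whole table, 16994 had enough counts to be tested, and these are the genes described.

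Cystine is the oxidised dimer of cysteine and the form in which cultured cells take most of their cysteine from the medium. It enters through the exchanger system xc-, whose transport chain is SLC7A11, and inside the cell it is reduced to cysteine for protein, glutathione, coenzyme A and iron-sulfur clusters. Glutathione in turn lets GPX4 reduce lipid peroxides, and cells that lose this defence can die by ferroptosis. Shortage of an amino acid also leaves tRNAs uncharged, which activates kinases that phosphorylate the initiation factor eIF2alpha. Translation then slows in general while that of the transcription factor ATF4 increases, and ATF4 with its partners drives genes for amino acid uptake, synthesis and tRNA charging.

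The total estimated count of the 6 samples lay between 19146108 and 24179533. Rows without a gene name held 1.45 to 1.65% of counts in control samples and 0.958 to 1.24% in deprived samples, and mitochondrial transcripts held 6.69 to 7.24% and 6.34 to 6.76%. By edgeR's quasi-likelihood test with Benjamini-Hochberg adjustment, 9451 of 16994 genes were called at an adjusted p under 0.05, which is 55.6% of those tested. Of all genes 4886 rose (28.8%) and 4565 fell (26.9%), and by at least 2-fold 823 rose (4.84%) and 1063 fell (6.26%). With library totals alone as the scaling, 4086 rose and 5320 fell. The median log2 fold change over all tested genes was -0.0061, with the 5th and 95th percentiles at -1.19 and 1.04. The groups did not overlap for 62.8% of genes, and for 9157 of the 9451 called genes. The absence of overlap stated for a gene below is therefore common. Genes named as the largest rises and falls were required to have it. In this background more than every other gene was called, so a list is described below by its counts in each direction and by its median. Values are CPM, counts rescaled to a common TMM-scaled library size, samples are given in the order of their replicate numbers, fold changes are deprived over control on the log2 scale ± SE, and group values are means ± SD with n = 3. A CPM value is a share of the counts of a library and is not corrected for transcript length, so it does not rank genes against each other. In bulk RNA a lower level cannot be told from fewer cells of a kind that holds the transcript.

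The largest rises among genes of at least 20 CPM were in metabolic, stress and epithelial genes. UPP1, a uridine phosphorylase of pyrimidine salvage (chromosome 7, 48088628 to 48108733, GRCh38), stood at 11.1, 10.4 and 9.38 CPM in control samples and 315, 324 and 294 CPM in deprived samples. HMOX1, the inducible haem oxygenase, came next with a log2 fold change of 4.03 ± 0.09. LURAP1L (chromosome 9, 12775021 to 12822131), a gene of little-described function, was at 3.26, 4.21 and 3.85 CPM in control samples and 46.1, 43.4 and 49.5 CPM in deprived samples. The keratins KRT7 and KRT80 rose by 3.10 to 3.32 on the log2 scale, with the caution that keratin reads can be shared between related copies. VGF, which encodes a secreted neuropeptide precursor (chromosome 7, 101162509 to 101165593), was at 11.5, 11.3 and 11.5 CPM in control samples and 108, 115 and 111 CPM in deprived samples. Also among the 12 largest rises were TRIB3, SLC7A11, DDIT3, CHAC1 and STC2, at 2.98 to 3.30, and they are described with their pathways. By the rule that chose them, the groups do not overlap for any of these genes.

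The 12 largest falls had smaller folds than the rises and held several genes of development and of sterol handling. CYP24A1, the hydroxylase that inactivates vitamin D (chromosome 20, 54153449 to 54173973), went from 105 ± 4.43 to 23.6 ± 2.75 CPM. ARID5B and MEF2C, a chromatin-binding and a MADS-box transcription factor, had log2 fold changes of -2.08 ± 0.094 and -2.03 ± 0.093. WNT16, a Wnt ligand (chromosome 7, 121325367 to 121341104), was at 186, 199.8 and 195 CPM in control samples and 60.2, 57.6 and 54.9 CPM in deprived samples. CRYZ, a quinone reductase, went from 38.6 ± 0.969 to 12.2 ± 0.246 CPM. Also among them were INSIG1 and LSS, which belong to sterol handling, ID2, SOX4 and BMP4, which belong to BMP and Wnt signalling, and SESN3, a sestrin, at -1.70 to -1.98.

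**Figure D1:**
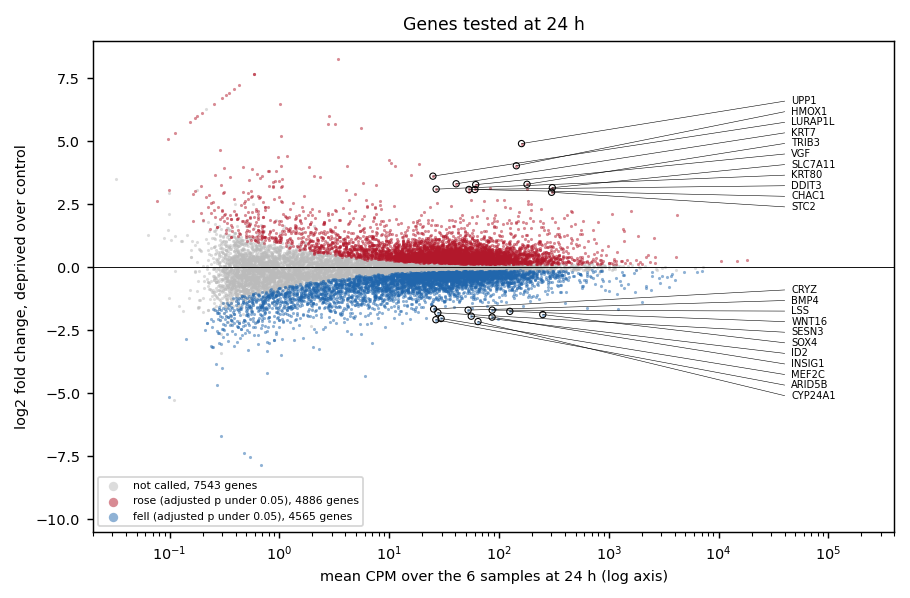
Each point is a tested gene, with its mean CPM over the 6 samples at 24 h on a log axis and its log2 fold change on the vertical axis. The 4886 genes that rose are red, the 4565 that fell are blue, and the genes described above among the 12 largest rises and 12 largest falls of at least 20 CPM are circled and named. Fold changes of genes at 0 in a group depend on the fitting and appear as the steep rows of points at low CPM.

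Both chains of the cystine exchanger, the first step the missing nutrient would use, rose. They belong to an uptake list that also holds other amino acid carriers. SLC7A11, the transport chain of system xc- (chromosome 4, 138164097 to 138242349), was at 71.3, 61.9 and 51.3 CPM in control samples and 551, 572 and 529.6 CPM in deprived samples. By the rule for the largest rises, every deprived sample lay above every control sample. The log2 fold change was 3.16 ± 0.11 (edgeR adjusted p = 3.85e-14). SLC3A2, the heavy chain that carries SLC7A11 to the membrane, rose by 2.22 ± 0.08. The neutral amino acid carriers SLC1A4 and SLC1A5 rose by 2.41 ± 0.12 and 1.30 ± 0.061, SLC1A1, a glutamate carrier that also takes cysteine, fell to a log2 fold change of -0.80 ± 0.08, and SLC7A9, the cystine carrier of kidney and gut, was at 0.073 to 0.073 without a call. In all 4 of 6 tested members of the uptake list rose, the neutral amino acid carriers SLC1A4 and SLC1A5 among them.

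Glutathione genes for synthesis rose together with a gene for its breakdown. GCLM and GCLC, the modifier and catalytic chains of glutamate-cysteine ligase, which makes the first bond of glutathione, rose by 1.99 ± 0.073 and 1.24 ± 0.056, and GSS, the synthase of the final step, by 0.99 ± 0.058. GSR, which reduces oxidised glutathione, was at 0.11 ± 0.057 and was not called. CHAC1, which cleaves glutathione inside the cell, was at 14.1, 11.2 and 12.7 CPM in control samples and 103, 114 and 107 CPM in deprived samples. Its lowest deprived sample was several times its highest control sample. CNDP2, a dipeptidase that frees cysteine from cysteinylglycine, rose by 0.75 ± 0.057, and CHAC2 and OPLAH, a paralog of CHAC1 and the oxoprolinase that returns glutamate, by 0.89 ± 0.14 and 0.36 ± 0.087. GGT1, the surface enzyme that starts breakdown outside the cell, fell, with -0.61 ± 0.14.

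Enzymes that spend cysteine went both ways, with 4 of 12 higher and 4 lower, which is near the shares over all tested genes (28.8% and 26.9%). PPCDC, a decarboxylase of coenzyme A synthesis, went from 5.30 ± 0.979 to 14.9 ± 0.546 CPM and was the member with the smallest adjusted p. CSAD and ADO, of taurine and hypotaurine formation, and TSTD1 rose by 0.41 to 0.81. The mitochondrial sulfide and sulfite genes SUOX, TST and ETHE1 and the sulfurtransferase MPST fell, at -0.24 to -0.79. NFS1, the cysteine desulfurase that supplies iron-sulfur clusters, was at 0.14 ± 0.072 and was not called. CTH, the enzyme that makes cysteine from cystathionine, was at 0.085 ± 0.082, also without a call. In the methionine cycle 3 of 7 members rose and 4 fell. MTRR and MTR, which remake methionine from homocysteine, and MAT2A, which makes S-adenosylmethionine, rose by 0.18 to 0.71, whereas AHCY, which releases homocysteine, fell, with -0.69 ± 0.059. Of polyamine genes, ODC1, SRM, SMOX and ENOPH1 rose by 0.48 to 1.28, ODC1 being the decarboxylase at the entry to the pathway. The antizymes OAZ2 and OAZ1, which direct ODC1 protein to degradation, fell, at -1.07 ± 0.052 and -0.96 ± 0.062. In that list 6 of 15 members fell.

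Basic leucine zipper factors, the family of ATF4 that binds DNA as dimers, rose more often than they fell. Of 50 tested members 29 rose and 8 fell, and the median was 0.42. All 5 C/EBP members rose, with a median of 2.04. DDIT3, known as CHOP, which forms dimers with other C/EBP proteins (chromosome 12, 57516588 to 57521737), was at 11.4, 10.2 and 11.9 CPM in control samples and 97.6, 95.3 and 93.4 CPM in deprived samples. CEBPG, a partner of ATF4, was at 60.8, 58.6 and 54.2 CPM in control samples and 247, 237 and 231 CPM in deprived samples. Neither gene had overlapping groups, which the rule for the largest rises required of DDIT3. The log2 fold changes were 3.09 ± 0.08 and 2.04 ± 0.056. CEBPB rose by 1.95 ± 0.087, CEBPD by 2.45 ± 0.17 from a low level, and CEBPA, linked to differentiation, by 0.48 ± 0.16.

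ATF4 mRNA itself changed little beside its partners. ATF4 was at 384, 368 and 366 CPM in control samples and 497, 483 and 518 CPM in deprived samples, which gave 0.42 ± 0.065. The groups did not overlap, and translation, through which ATF4 is mainly controlled, is not measured by these data. Among the ATF and CREB members 11 of 19 rose and 3 fell. ATF3, a stress-induced repressor and activator, rose by 2.10 ± 0.073, and XBP1, a factor of the unfolded protein response, by 1.83 ± 0.061. ATF6, CREB3L2, CREM and ATF5 rose by 0.98 to 1.26. CREBZF and CREBL2 fell, at -0.27 to -0.35, as did CREB3L3, a liver and gut factor with 80 estimated counts summed over controls and 17 over deprived samples.

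Of 10 AP-1 members, dimers of FOS and JUN proteins, 6 rose and 2 fell. JUN was at 20.6, 20.1 and 20.8 CPM in control samples and 125, 131 and 125 CPM in deprived samples. FOSL1 was at 28.7, 31.6 and 30.3 CPM in control samples and 182, 199.9 and 189 CPM in deprived samples. Both had a clear gap between the groups, whereas FOS and JUNB, which belong to the same dimer family, fell, with -0.70 ± 0.14 and -0.22 ± 0.07. In the CNC and small MAF group NFE2L1 and NFE2L2 rose by 1.26 ± 0.049 and 0.77 ± 0.059; NFE2L2 encodes NRF2 and NFE2L1 the factor that drives proteasome genes. NFE2L3 fell, with -0.39 ± 0.065, and 5 of 12 members of the group rose and 2 fell. NFIL3 rose by 1.14 ± 0.055 and DBP, a circadian output factor that binds similar sites, fell to a log2 fold change of -0.86 ± 0.074.

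Of the kinases that phosphorylate eIF2alpha, EIF2AK3, or PERK, which senses unfolded protein in the endoplasmic reticulum (ER), rose by 0.80 ± 0.065. EIF2AK4, or GCN2, which senses uncharged tRNA, was at -0.11 ± 0.048 and was not called. EIF2AK1, or HRI, which senses haem, EIF2AK2, or PKR, which senses double-stranded RNA, and DELE1, the mitochondrial activator of HRI, fell, at -0.26 to -0.61. Kinase activity does not follow from these levels. In the substrate complex EIF2S1 and EIF2S2, the alpha and beta subunits of eIF2, rose by 0.74 ± 0.055 and 0.67 ± 0.058, as did the exchange factor subunits EIF2B1 and EIF2B2, by 0.38 to 0.55. EIF2S3, the gamma subunit, and the alternative initiation factors EIF2A and EIF2D fell, at -0.18 to -0.39.

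Genes that end or limit the response rose in 6 of 8 cases. TRIB3, a pseudokinase that restrains ATF4 (chromosome 20, 362835 to 397559), was at 34.7, 32.3 and 32.8 CPM in control samples and 321, 330.4 and 331 CPM in deprived samples. PPP1R15A, or GADD34, which brings a phosphatase to eIF2alpha, went from 55.4 ± 2.25 to 315 ± 6.88 CPM, whereas its constitutive relative PPP1R15B rose by 0.20 ± 0.048. NUPR1, a small chromatin-associated stress protein, had 7 estimated counts in all controls together and 422 in all deprived samples, a ratio of 51.6 (95% counting interval 24.8 to 129). TRIB2 and TRIB1, paralogs of TRIB3, fell, at -0.94 ± 0.066 and -0.37 ± 0.053. The sestrins, which pass leucine and stress signals to mTORC1, split in the same way. SESN2 was at 26.4, 23.7 and 27.9 CPM in control samples and 164, 171 and 168 CPM in deprived samples. SESN3 was at 44.0, 43.8 and 41.7 CPM in control samples and 11.5, 12.8 and 12.7 CPM in deprived samples. The groups were apart for both, which the rule for the largest falls required of SESN3, and the directions were opposite. SESN1 fell less, with -0.25 ± 0.087. DDIT4, an mTORC1 inhibitor, rose by 1.71 ± 0.085 and its relative DDIT4L fell (log2 fold change -1.39 ± 0.076); LARS1, the leucine-sensing tRNA synthetase, rose by 0.93 ± 0.048. Among the mTORC1 sensing genes 3 of 15 rose and 8 fell.

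Cytosolic aminoacyl-tRNA synthetases, which load amino acids onto tRNA, were higher for 16 of 20 members and lower for 1, the median being 0.84. The mitochondrial set rose in 4 of 17 and fell in 3, with a median of 0.0056 that turned to -0.065 under upper-quartile scaling. WARS1, for tryptophan, was at 52.5, 48.0 and 51.0 CPM in control samples and 321, 318 and 307 CPM in deprived samples. AARS1, for alanine, was at 269, 247 and 243 CPM in control samples and 891, 912 and 943 CPM in deprived samples. The groups were apart for both. The cysteine enzyme CARS1 rose by 1.30 ± 0.062. QARS1, for glutamine, was the exception, with -0.84 ± 0.051, and HARS1 and RARS1 were not called, at -0.073 to 0.11. In the mitochondrial set WARS2, AARS2 and VARS2 rose by 0.27 to 0.38 and IARS2, SARS2 and YARS2 fell, at -0.18 to -0.46.

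The serine synthesis enzymes PSAT1, PHGDH and PSPH, 3 of 3, rose by 0.76 to 1.96. In mitochondrial folate metabolism MTHFD2 and MTHFD1L rose by 1.48 ± 0.051 and 1.28 ± 0.06, SLC25A32, the folate carrier, by 0.49 ± 0.073, SHMT2, which moves a carbon from serine to folate, was at -0.0034 ± 0.063 without a call, and GCSH of glycine cleavage fell, with -0.18 ± 0.069. Of 8 cytosolic folate genes 4 fell, GGH and SHMT1 at -0.49 to -0.60, and MTHFS and MTHFD1 rose, by 0.23 to 0.74. ASNS, the asparagine synthetase, was at 172, 167 and 135 CPM in control samples and 695, 646 and 677 CPM in deprived samples. GOT1, the cytosolic aspartate aminotransferase, rose by 1.56 ± 0.066 and GOT2, its mitochondrial counterpart, was at 0.0059 ± 0.056 without a call, and ASRGL1, an asparaginase, fell, with -0.30 ± 0.09. PYCR1 and ALDH18A1, of proline synthesis, rose by 0.29 to 1.00, and OAT, which links ornithine to the same pathway, fell (log2 fold change -1.07 ± 0.055). PCK2, the mitochondrial phosphoenolpyruvate carboxykinase, and GPT2, the mitochondrial alanine aminotransferase, rose by 2.40 ± 0.068 and 1.64 ± 0.063; GLUL, the glutamine synthetase, and BCAT2 fell, with -1.03 ± 0.06 and -0.24 ± 0.081.

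ATF4 and C/EBP proteins bind composite elements with a TGATGNAA core as dimers. That core was searched on both strands of RefSeq promoter windows (GRCh38.p14), which run from 250 bases before to 50 after a transcription start, with any window of a gene counted. It was present in 3.62% of all windows and in 4.46% of all genes with a window. Of the tRNA synthetase genes with a window 8 of 30 held it (26.7%), and of the bZIP factors 5 of 42 (11.9%). Other lists held it less often, with 1 of 42 ER stress genes (2.38%), 1 of 87 cell cycle genes (1.15%) and 0 of 41 NRF2-linked genes. The list of eIF2alpha kinase, eIF2, feedback and mTORC1 sensing genes had it in 2 of 29 with a window. Differences between lists were not tested. The stretches below show the core in 4 genes that rose and whose roles are given above. Each is written 5′ to 3′ on the gene's own strand, with the match to the core, on either strand, in capitals. CEBPG was taken by the rule for promoters and the other three after their values were seen. The first matching base lay 42, 209, 68 and 187 bases before the start of the RefSeq window that held it, and a gene can have other starts. The CHAC1 stretch lies inside the annotated gene, which begins at 40952962. A match shows only that these letters are there.
CEBPG, chr19:33374035-33374115, plus strand: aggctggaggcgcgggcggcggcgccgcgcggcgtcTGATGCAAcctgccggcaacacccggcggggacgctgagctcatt
CHAC1, chr15:40953226-40953306, plus strand: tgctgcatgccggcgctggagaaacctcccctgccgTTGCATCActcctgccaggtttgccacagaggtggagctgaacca
ASNS, chr7:97872432-97872512, minus strand: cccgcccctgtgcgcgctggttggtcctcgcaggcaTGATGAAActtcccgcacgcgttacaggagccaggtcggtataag
AARS1, chr16:70289649-70289729, minus strand: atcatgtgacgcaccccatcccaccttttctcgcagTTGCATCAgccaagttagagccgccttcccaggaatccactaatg

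Genes of the ER stress response rose by branch. Of 46 tested members 35 rose and 4 fell, and the median was 0.43. HSPA5, or BiP, the main chaperone of the ER and the brake on its stress sensors (chromosome 9, 125234853 to 125241330), was at 562, 564 and 558 CPM in control samples and 2668, 2615 and 2546 CPM in deprived samples. XBP1, whose mRNA is spliced by the sensor IRE1, was at 41.6, 43.7 and 40.6 CPM in control samples and 148, 148 and 152 CPM in deprived samples. For both the groups were apart, with 2.22 ± 0.05 and 1.83 ± 0.061; the gene-level counts do not tell spliced from unspliced XBP1. ERN1, which encodes IRE1, rose by 1.74 ± 0.07, and HYOU1 and DNAJB9, a chaperone and a co-chaperone, by 1.64 ± 0.049 and 1.68 ± 0.074. Of the 14 chaperone genes 11 rose, and CALR, FKBP14 and CRELD2 were not called, at 0.019 to 0.12; CRELD2 is a usual member of this response.

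The degradation and disulfide branches of the ER list had different counts. All 15 tested genes for ER-associated degradation, which carries misfolded protein to the proteasome, rose, with a range of 0.17 to 1.84 and a median of 0.46. HERPUD1, a membrane organiser of that machinery, was at 39.4, 37.0 and 40.7 CPM in control samples and 134, 141 and 144 CPM in deprived samples. SEL1L, the adaptor of its ubiquitin ligase, rose by 1.20 ± 0.05. Of 11 genes that form or shuffle disulfide bonds 4 rose and 4 fell, with a median of -0.0059. TXNDC11, ERP44, P4HB and TXNDC5 rose by 0.26 to 0.79. PDIA5, QSOX1, ERO1A and PDIA6, of which ERO1A and QSOX1 are oxidases that consume oxygen, fell, at -0.17 to -0.39. The difference between the branches was not tested.

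The ER stress response element, bound by ATF6 and XBP1 with the factor NF-Y, pairs CCAAT with CCACG 9 bases further on. This pair was present in 0.0769% of all windows, in 0.0916% of all genes with a window and in 8 of 42 ER stress genes with a window (19.05%). It is shown for HSPA5 and XBP1, the member genes that carry it with the smallest adjusted p, with the whole element in capitals, 66 and 52 bases before the start.
HSPA5, chr9:125241360-125241440, minus strand: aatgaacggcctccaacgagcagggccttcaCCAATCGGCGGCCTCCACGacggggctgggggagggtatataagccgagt
XBP1, chr22:28800572-28800652, minus strand: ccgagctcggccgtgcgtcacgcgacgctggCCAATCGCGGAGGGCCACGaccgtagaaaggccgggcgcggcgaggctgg

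Antioxidant genes linked to NRF2 moved in both directions, with 18 of 50 higher and 19 lower and a median of -0.037. Over all tested genes 28.8% rose and 26.9% fell. In the thioredoxin system, which reduces disulfides with NADPH, 5 of 14 rose and 5 fell. TXNRD1, the cytosolic thioredoxin reductase, was at 356, 360.1 and 348 CPM in control samples and 1271, 1221 and 1236 CPM in deprived samples. SRXN1, the sulfiredoxin that repairs overoxidised peroxiredoxin, was at 82.3, 78.3 and 85.4 CPM in control samples and 404, 399.6 and 411 CPM in deprived samples. PRDX1, the abundant cytosolic peroxiredoxin that SRXN1 repairs, was at 714, 728 and 718 CPM in control samples and 429.5, 403 and 447 CPM in deprived samples. Thus the reductase and the repair enzyme were higher in every deprived sample and the peroxidase lower. GLRX2, PRDX5 and TXN rose by 0.17 to 1.14, with the call of TXN lost under upper-quartile and total-count scaling and without control replicate 1 (0.14) or 3 (0.15) or deprived replicate 1 (0.16) or 3 (0.15), and PRDX2, PRDX3, PRDX4 and TXNRD3 fell, at -0.29 to -0.85.

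NADPH supply also split. ME1, the malic enzyme, and PGLS, an early enzyme of the pentose phosphate pathway, rose by 0.52 to 0.99, while PGD, TKT and TALDO1, the later enzymes of the same pathway, fell, at -0.41 to -0.75, and NNT, at about 1 CPM, fell too (-1.09 ± 0.42), a call that was lost with DESeq2. Of 22 detoxification genes 10 fell and 6 rose, the risers being ABCC3, NQO1, UGDH, MGST1, AKR1C1 and AKR1B10 at 0.18 to 1.75. ABCC3 exports conjugates and NQO1 reduces quinones; AKR1C1 and AKR1B10 were below 1 CPM, and the call of AKR1B10 was lost with DESeq2 and under each other scaling. Every regulator that was called rose, 4 of 6, with OSGIN1 and SQSTM1 at 1.89 ± 0.07 and 1.48 ± 0.057 and KEAP1, the adaptor that marks NRF2 for degradation, at 0.45 ± 0.059.

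The core of the antioxidant response element, TGACNNNGC, was present in 13.3% of all windows and in 16.1% of all genes with a window. Of 41 NRF2-linked genes with a window 12 held it (29.3%). In other lists 10 of 42 ER stress genes (23.8%) and 20 of 87 cell cycle genes (23.0%) with a window held it. So did 6 of 42 bZIP factors (14.3%) and 1 of 31 ribosome biogenesis genes (3.23%). Differences between lists were not tested. TXNRD1 has the smallest adjusted p of the NRF2-linked genes that rose and carry the core. It is shown with the match further from the start, of 2 in its window, in capitals, 99 bases before the start.
TXNRD1, chr12:104215644-104215724, plus strand: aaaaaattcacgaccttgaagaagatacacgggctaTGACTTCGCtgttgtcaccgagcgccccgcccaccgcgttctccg

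The heavy chain of ferritin gained more CPM than any other nuclear gene. FTH1, the heavy chain of ferritin that stores iron, was at 1514, 1569 and 1692 CPM in control samples and 6682, 6787 and 6911 CPM in deprived samples. FTL, the light chain, was at 655, 710.0 and 726 CPM in control samples and 2007, 1945 and 2023 CPM in deprived samples. Neither had overlapping groups. HMOX1, which frees iron from haem, was at 17.0, 16.6 and 16.2 CPM in control samples and 269, 279 and 267 CPM in deprived samples, and ALAS1, SLC48A1, BLVRB and FECH rose by 0.20 to 1.01. CPOX, the coproporphyrinogen oxidase of haem synthesis, went from 579.5 ± 17.2 to 217 ± 2.83 CPM, and ALAD, BLVRA, FLVCR1 and UROD fell, at -0.23 to -1.31, so the haem list had 6 of 14 higher and 5 lower. TFRC, the transferrin receptor for iron uptake, rose by 0.29 ± 0.045, and NCOA4, the receptor that takes ferritin to the lysosome, ACO1, STEAP3 and CISD2 fell, at -0.25 to -0.55. SLC40A1, the iron exporter ferroportin, went from 105 to 26 estimated counts summed over the 3 samples of a group.

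Lipid peroxide defence was not uniform, with 10 of 27 members higher and 12 lower, beside 28.8% and 26.9% of all tested genes. GPX4 was at 174, 176 and 189 CPM in control samples and 127, 124 and 132 CPM in deprived samples. AIFM2, or FSP1, a quinone reductase that protects membranes without glutathione, was at 32.9, 32.7 and 36.4 CPM in control samples and 64.1, 66.4 and 66.6 CPM in deprived samples. GPX4 was lower in every deprived sample and AIFM2 higher. COQ2, of coenzyme Q synthesis, DHODH, GCH1, GPX8 and VKORC1L1 rose by 0.17 to 0.97. GPX1 and SPR fell, at -0.40 to -0.53, and so did GPX3, at under 1 CPM, with -1.28 ± 0.50. The value of GPX3 was -2.09 without deprived replicate 3 and -0.89 without deprived replicate 2. Its call was lost with DESeq2 and without control replicate 1 or 3 or deprived replicate 1 or 2. Among enzymes that load fatty acids into membrane lipids, ACSL1, ACSL4, ACSL3 and LPCAT3 fell, at -0.43 to -1.16, together with SAT1, a polyamine acetyltransferase linked to lipid oxidation, at -0.57 ± 0.05. PTGS2, POR and ACSL5 rose by 0.35 to 1.45.

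**Figure D2:**
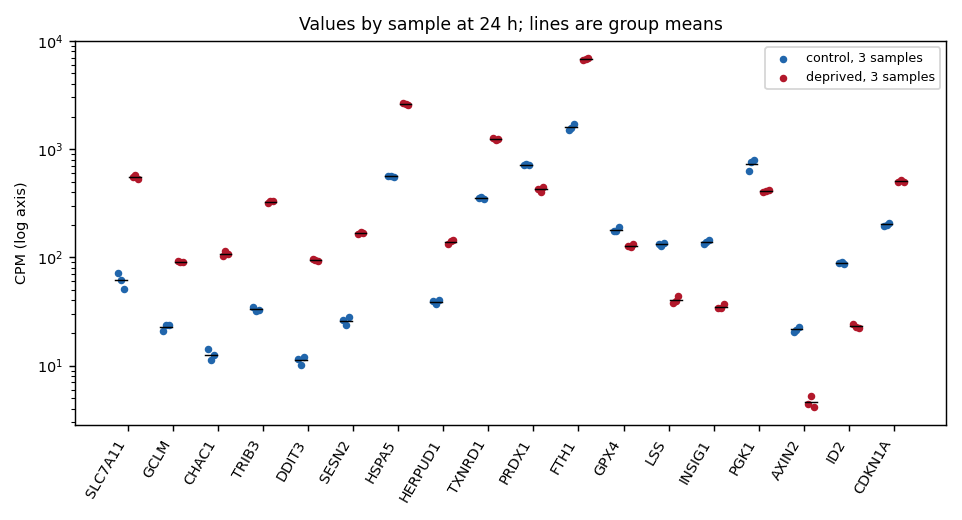
CPM of 18 genes in each of the 3 control samples (blue) and 3 deprived samples (red) at 24 h, on a log axis, with a line at each group mean. Blue and red do not overlap for any of the 18 genes. The same holds for 62.8% of all tested genes, and several of the 18 were taken by a rule that required it. PRDX1, GPX4, LSS, INSIG1, PGK1, AXIN2 and ID2 are lower in deprived samples and the others higher.

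Cholesterol synthesis genes fell along nearly the whole pathway. Of 20 tested synthesis genes 19 fell and PMVK, an early mevalonate kinase, rose by 0.31 ± 0.10, and the median was -1.01. LSS, the lanosterol synthase, was at 134, 128 and 136 CPM in control samples and 38.1, 39.9 and 44.4 CPM in deprived samples. INSIG1, which holds the SREBP factors in the ER when sterol is ample and is itself their target, was at 132, 138 and 145 CPM in control samples and 33.7, 34.0 and 37.4 CPM in deprived samples. By the rule that took both genes, each deprived sample was lower than any control sample. SREBF2, the main driver of the pathway, fell less, with -0.42 ± 0.063, and SREBF1, its relative for fatty acids, less again, with -0.15 ± 0.053. In uptake and efflux 8 of 12 fell, NPC2, ABCA1 and STARD4 at -0.94 to -1.33. NPC1, the lysosomal cholesterol transporter, rose by 0.61 ± 0.057, and the oxysterol receptors NR1H2 and NR1H3 by 0.26 to 0.26. The SREBP element TCACNCCAC was present in 1.13% of all windows and in 1.39% of all genes with a window. Of the 28 listed sterol genes with a window 1 held it, SREBF2, where it is shown 133 bases before the start, in capitals.
SREBF2, chr22:41832936-41833016, plus strand: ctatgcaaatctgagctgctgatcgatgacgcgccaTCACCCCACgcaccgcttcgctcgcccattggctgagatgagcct

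Fatty acid genes fell in 8 of 17 members and rose in 6. SCD, the desaturase that makes monounsaturated fatty acids, was at 2737, 2821 and 2878 CPM in control samples and 1544, 1555 and 1617 CPM in deprived samples. FASN, the fatty acid synthase, went from 1608 ± 170.1 to 769 ± 81.8 CPM, and SCD5, ACLY and ACACA fell, at -0.35 to -1.02. FADS3, FADS2 and FADS1, desaturases of polyunsaturated fatty acids, and ELOVL1, ACSS2 and GPAM rose by 0.21 to 0.91.

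Most glycolysis genes below glucose entry fell. Of 15 main pathway genes 14 fell and PFKP, a phosphofructokinase, was not called, with 0.16 ± 0.074; the median was -0.76. PFKM, the muscle-type phosphofructokinase, was at 162, 171 and 173 CPM in control samples and 99.8, 95.2 and 102 CPM in deprived samples. PKM, the pyruvate kinase, was at 2534, 2796 and 2952 CPM in control samples and 1585, 1639 and 1660.1 CPM in deprived samples. The groups were apart for both. At the entry, HKDC1, a hexokinase family member, had 58 estimated counts in all controls and 1260 in all deprived samples, and SLC2A12, a glucose transporter, went from 15.2 ± 2.01 to 2.92 ± 0.564 CPM, whereas SLC2A1, the main glucose transporter, was at -0.083 ± 0.10 without a call. HK2 rose by 0.46 ± 0.10 and HK1 fell (log2 fold change -0.27 ± 0.073). Of the kinases that inhibit pyruvate dehydrogenase PDK3, PDK4 and PDK2 fell, at -0.84 to -1.46. SLC16A1, TIGAR and PFKFB2 rose by 0.23 to 0.69.

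The series title names hypoxia, and hypoxia target genes fell more often than they rose. HIF1A, the oxygen-regulated factor, rose by 0.47 ± 0.053, VHL, which marks it for degradation, rose by 0.22 ± 0.057, and EGLN3, a prolyl hydroxylase that is a HIF target, fell (log2 fold change -0.98 ± 0.11). Of 25 target genes 14 fell and 1, VEGFA, rose. VEGFA, the vessel growth factor, was at 68.2, 74.9 and 79.5 CPM in control samples and 243, 272 and 255 CPM in deprived samples. KDM3A, BNIP3 and CA12 fell, at -0.87 to -1.38. Several of these targets are glycolysis genes and are counted in both lists. CA9 was at -0.59 ± 0.31 and was not called.

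Of 89 oxidative phosphorylation genes 63 fell and 6 rose, with smaller changes than glycolysis (median -0.24). All 4 subunits of complex II, which feeds succinate electrons, fell, as did 7 of 9 in complex III and 9 of 10 in complex IV, the oxygen-consuming step. SDHC, UQCR10 and COX6C were the members of these complexes with the smallest adjusted p, followed by SDHA, UQCRC2 and COX5B, at -0.39 to -0.81. In complex I 22 of 38 fell, with NDUFB4 and NDUFS6 at -0.71 ± 0.061 and -0.95 ± 0.085, and NDUFA6, NDUFS1, NDUFS4 and NDUFV3 rose, by 0.15 to 0.40. Of the ATP synthase, 12 of 15 fell, ATP5MF and ATP5MC3 at -1.03 ± 0.086 and -0.54 ± 0.069, and ATP5F1D rose by 0.51 ± 0.10. Of 13 transcripts from mitochondrial DNA 9 fell, MT-ND3 and MT-ND2 with -0.53 ± 0.059 and -0.43 ± 0.06, and MT-CO1 rose by 0.24 ± 0.05.

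**Figure D3:**
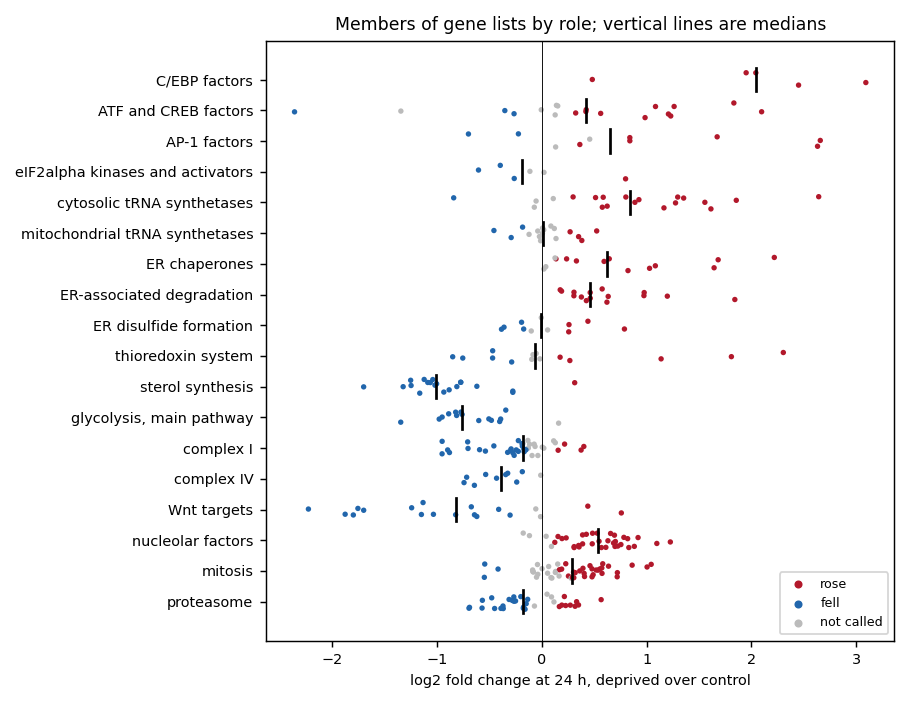
Log2 fold change at 24 h of each tested member of 18 gene groups; red points rose, blue points fell, grey points were not called, and the vertical line is the median of a group. All C/EBP factors and ER-associated degradation genes lie to the right of 0, most sterol synthesis and main glycolysis genes to the left, and the ER disulfide and thioredoxin groups on both sides.

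Counted as shares of all counts, the largest gains and losses were in abundant transcripts. After FTH1, the largest gains were of EEF1A1, the elongation factor that brings tRNA to the ribosome, which went from 16394 ± 665 to 19861 ± 427 CPM, and of HSPA5. HMGA1, a chromatin protein, was at 1404, 1536 and 1837 CPM in control samples and 3509, 3569.5 and 3556 CPM in deprived samples. EZR, or ezrin, which ties actin to the membrane, was at 1033, 1149.7 and 1147 CPM in control samples and 2631, 2581 and 2561 CPM in deprived samples. SLC7A5, the large neutral amino acid carrier that shares SLC3A2 as its heavy chain, was at 426, 379 and 421 CPM in control samples and 1669, 1792 and 1799 CPM in deprived samples. Each of these was higher in all deprived samples, and ERRFI1, an inhibitor of EGF receptors, rose from 739 ± 48.5 to 2009.6 ± 20.5 CPM. EEF1A1, HMGA1 and PTMA have many processed copies, so their counts are uncertain in part. The same may hold for other genes among these gains and losses, FTH1 and GAPDH included.

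The largest losses were of cell surface, chaperone and metabolic genes. FAT1, a giant protocadherin, was at 2922, 2799.9 and 2870.4 CPM in control samples and 1051, 1099 and 1193 CPM in deprived samples. KITLG, the ligand of the receptor KIT, was at 1866, 1879 and 1785 CPM in control samples and 604, 578 and 587 CPM in deprived samples. Both were lower in each deprived sample. HSP90AA1 and HSP90AB1, the inducible and constitutive cytosolic HSP90 chaperones, went from 3169 ± 94.4 to 1678 ± 66.3 CPM and from 3553 ± 97.2 to 2289 ± 67.0 CPM. SCD, PTMA, PKM and GAPDH complete the 8 largest losses, at -0.40 to -0.99.

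**Figure D4:**
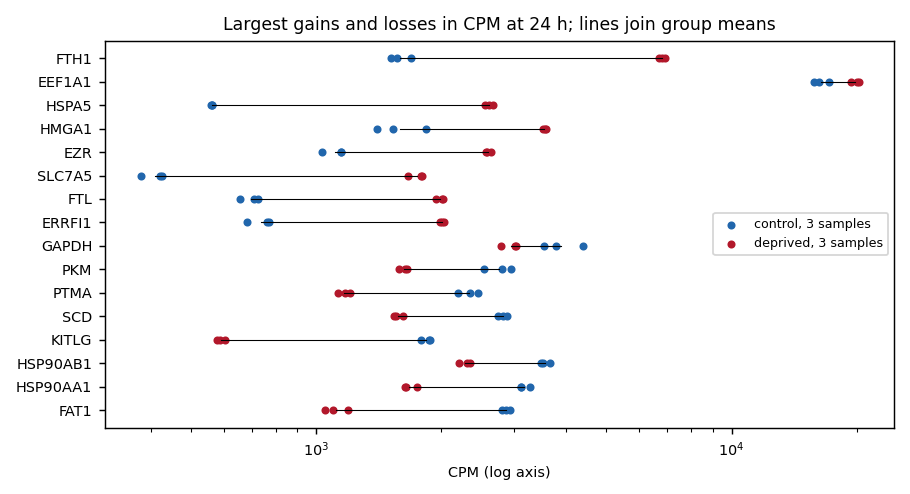
CPM on a log axis of the 8 genes with the largest gain and the 8 with the largest loss in mean CPM; blue points are the 3 control samples, red points the 3 deprived samples, and a line joins the group means. HSPA5, SLC7A5 and FTH1 have wide gaps on this axis, and EEF1A1, the highest in level, a narrow one.

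Cytosolic heat shock genes fell more often than they rose. Of 15 cytosolic heat shock members 10 fell and 3 rose, DNAJB1, HSF1 and HSPA4, at 0.18 to 0.87. HSPB1, a small heat shock protein, was at 288, 288 and 329 CPM in control samples and 128, 129.7 and 139 CPM in deprived samples. HSP90AA1 had the smallest adjusted p of the group, with -0.92 ± 0.046. HSPA1B and HSPA1A are near-identical copies, and HSPA1B, at -0.48 ± 0.10, stands for both. In mitochondria HSPA9 and LONP1, a chaperone and a protease, DNAJA3, YME1L1 and CLPX rose by 0.27 to 1.12, and HSPE1 and HSPD1, the paired chaperonin chains, and CLPP fell, at -0.19 to -1.12. Of 33 proteasome genes 20 fell, PSMD2 and PSMB6 with -0.69 ± 0.058 and -0.70 ± 0.068, and 9 rose, PSMD7, PSMC5, PSMD12, PSMD8, PSMC4, PSMD11, PSMD4, PSMC1 and PSMD6, by 0.17 to 0.57; all 9 belong to the regulatory cap and none to the catalytic core. Of 22 autophagy genes 13 rose and 6 fell. MAP1LC3B, which coats autophagosomes, was at 104, 108 and 101 CPM in control samples and 379, 366 and 368 CPM in deprived samples. SQSTM1, the receptor p62, was at 376, 388 and 374 CPM in control samples and 1077, 1025 and 1077 CPM in deprived samples. Both were higher in each deprived sample. ULK1, the starting kinase, GABARAPL2, WIPI2, ATG2A, OPTN and ATG14 fell, at -0.21 to -0.77.

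Targets of the Wnt pathway, which HCT116 cells run constitutively through a mutant beta-catenin, fell in 15 of 19 tested members with a median of -0.82. AXIN2, a direct target and negative regulator (chromosome 17, 65528563 to 65561647), was at 20.5, 21.4 and 22.8 CPM in control samples and 4.44, 5.23 and 4.11 CPM in deprived samples. SOX4, a transcription factor, was at 400.1, 384 and 399 CPM in control samples and 109, 104 and 109 CPM in deprived samples. The groups were apart for both, which the rule for the largest falls required of SOX4. LGR4, TNFRSF19, NKD1 and RNF43, receptors and feedback genes, fell, at -1.04 to -1.80. CCND1 and MYC, which many other signals also drive, rose by 0.76 ± 0.047 and 0.44 ± 0.065. Of the pathway's own components 12 of 17 fell. TCF7L2, the factor that beta-catenin binds on DNA, went from 255 ± 11.1 to 113 ± 6.28 CPM, CTNNB1, beta-catenin itself, had -0.16 ± 0.041, and BCL9L, DVL1, AXIN1 and DVL3 rose by 0.16 to 0.94.

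BMP signalling targets fell in 10 of 13 members. ID2, an inhibitor of helix-loop-helix factors, was at 89.5, 90.0 and 87.0 CPM in control samples and 24.4, 22.7 and 22.2 CPM in deprived samples. BMP4, a ligand, was at 82.8, 79.99 and 77.9 CPM in control samples and 21.4, 26.1 and 26.4 CPM in deprived samples. By the rule that took both genes, no sample of a group crossed into the other. ID1, ID3, SMAD6 and SMAD7 fell, at -0.80 to -1.99.

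Of 9 EGF family ligands 5 rose, with HBEGF and EREG at 1.73 ± 0.11 and 0.67 ± 0.051, and AREG, TGFA and BTC at 0.40 to 0.98. Of 12 receptors 8 fell. EPHA2, an ephrin receptor, went from 136 ± 8.80 to 378 ± 16.6 CPM, EGFR and MST1R rose by 0.52 to 0.75, and FGFR3, IGF1R, INSR and ERBB3 fell, at -0.49 to -1.28. Of 16 immediate early genes 11 rose and EGR2 and IER5L fell, at -0.31 to -1.05. KLF2, a zinc finger factor, was at 13.3, 14.99 and 17.1 CPM in control samples and 51.0, 56.5 and 57.0 CPM in deprived samples. KLF4, its relative of the gut epithelium, was at 30.5, 28.6 and 33.4 CPM in control samples and 87.8, 87.6 and 83.1 CPM in deprived samples. Deprived samples were all above controls for both. In feedback on ERK 10 of 21 rose and 5 fell, or 8 with upper-quartile scaling. ERRFI1 was at 683, 761 and 772 CPM in control samples and 2014, 2027 and 1987 CPM in deprived samples, and DUSP5, a nuclear ERK phosphatase, rose by 1.13 ± 0.061. SPRY1, SPRY2, SPRED1, SPRED2 and ETV4 fell, at -0.20 to -0.51; the call of SPRY1 was lost with DESeq2, with only the 24 h samples, and without control replicate 2 (-0.25) or 3 (-0.53) or deprived replicate 1 (-0.48), 2 (-0.52) or 3 (-0.52) at 24 h or control replicate 3 at 48 h (-0.51).

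Of 9 stress hormones 7 rose and ADM fell (log2 fold change -0.47 ± 0.083), with a median of 2.27. STC2, or stanniocalcin, was at 67.5, 64.7 and 71.5 CPM in control samples and 526, 553 and 528 CPM in deprived samples. FGF19, an enterohepatic hormone, was at 23.3, 23.4 and 26.5 CPM in control samples and 109, 123 and 120.2 CPM in deprived samples. GDF15, a hormone of cell stress that acts on the brainstem, was at 156, 152 and 166 CPM in control samples and 725, 733 and 769 CPM in deprived samples. For all 3 the groups were apart, which the rule for the largest rises required of STC2. SPX had 14 estimated counts in all controls and 733 in all deprived samples, INHBE 28 and 518, and FGF21 4 and 73, a ratio of 15.6 (95% counting interval 5.85 to 58.9). Among vessel and guidance genes NRP1, a co-receptor, went from 2.05 ± 0.109 to 35.4 ± 1.43 CPM and ANGPT4, VEGFA and SEMA3B rose, at 0.38 to 3.68, while 9 of 15 fell, SEMA3C, SEMA3F, SEMA3G, SEMA3A and NRP2 at -0.85 to -1.61. Of 17 chemokine and cytokine genes 9 rose. IL20RB, a receptor chain, was at 1.14, 1.44 and 1.28 CPM in control samples and 22.3, 21.1 and 20.1 CPM in deprived samples, and LCN2, which binds bacterial iron carriers, at 1.61, 0.565 and 1.13 CPM in control samples and 19.99, 19.8 and 18.97 CPM in deprived samples. Controls were close to 1 CPM for both. IL18, NFKBIA and TNFAIP3 fell, at -0.49 to -0.59.

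In the matrix list PLAU, the urokinase, rose by 1.94 ± 0.07 and TIMP2, TIMP3, MMP15, PLAT and MMP14 fell, at -0.26 to -0.97. LAMB3, a chain of laminin-332, rose by 2.29 ± 0.086; LAMA3, another chain of it, was at -0.07 ± 0.087 and was not called. Of 20 laminin, integrin and related adhesion genes 8 rose and 7 fell; the largest rise was of TNC, the matrix protein tenascin C, by 2.997 ± 0.51 at under 1 CPM. LAMB1, FN1, ITGB8, ITGAV, ITGA1, ITGB5 and CD44 fell, at -0.18 to -1.84. Actin genes rose in 13 of 30 and fell in 12. FLNA and FLNC, filamin crosslinkers, rose by 0.50 to 1.04, and TAGLN2, MYL9, CFL1, MYH10, ACTG1, TPM2, TPM3, CAPZB, DSTN, MYL6, IQGAP1 and TAGLN fell, at -0.15 to -0.88. In the RAC and WAVE set 6 of 12 rose and BRK1, INF2 and CYFIP1 fell, at -0.14 to -0.56.

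Genes of growth arrest, replication and mitosis did not move as a unit. CDKN1A, the inhibitor p21, was at 196, 198 and 209 CPM in control samples and 492, 514 and 501 CPM in deprived samples. E2F7, a repressor of the E2F family, was at 19.9, 19.2 and 19.8 CPM in control samples and 50.8, 50.7 and 52.2 CPM in deprived samples. CDC6, which licenses replication origins, was at 41.1, 43.4 and 44.5 CPM in control samples and 111, 100.4 and 97.3 CPM in deprived samples. Deprived samples were above controls for all 3. Of 21 G1 regulators 10 rose and CDKN1C, CDKN2C, RBL2, CDK2 and CCND3 fell, at -0.21 to -1.09. TK1, a thymidine kinase, fell, with -0.89 ± 0.056, together with MCM2, MCM3, MCM4, MCM5, MCM6 and MCM7, the replicative helicase, at -0.15 to -0.62. In replication 16 of 36 fell and 10 rose, CDC6 with GINS3, POLA2, RRM2, RFC3, RFC4, ORC6, CDC45, CHAF1A and MCM10 at 0.27 to 0.99. Of 47 mitosis genes 28 rose and 3 fell, with a median of 0.29. CDC20, which activates the anaphase ligase, was at 195, 195 and 226 CPM in control samples and 377, 367 and 376 CPM in deprived samples. UBE2C, its ubiquitin carrier, was at 68.4, 70.7 and 80.8 CPM in control samples and 149, 150.0 and 154 CPM in deprived samples. Both were higher in each deprived sample, and CENPF, CDC25C and PTTG1 were lower, at -0.42 to -0.55.

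Targets of p53, which HCT116 carries in its normal form, rose in 16 of 27 and fell in 6. TNFRSF10B, the death receptor DR5, was at 193, 198 and 194 CPM in control samples and 462, 457 and 452 CPM in deprived samples. GDF15 had the smallest adjusted p of the list and GADD45A and MDM2 rose by 0.48 to 1.84. CCNG1, CCNG2, TP53INP1, DDB2, FDXR and SESN1 fell, at -0.25 to -1.19. Several risers are also targets of ATF4 or CHOP, and these levels cannot assign them. In the BCL2 family 10 of 16 rose, PMAIP1, or NOXA, by 1.30 ± 0.054 and BCL2L1, which holds death back, by 0.99 ± 0.056, and BMF, BAD, BID and BCL2L12 fell, at -0.19 to -1.76. Of 16 death receptor genes 10 rose, TNFRSF12A by 1.77 ± 0.074, and 2 fell, among them TNFRSF10D, a decoy receptor, with -0.31 ± 0.069.

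Ribosome biogenesis rose in 32 of 36 members with a median of 0.54. DDX21, a nucleolar helicase, was at 213, 214 and 208 CPM in control samples and 517, 493 and 475 CPM in deprived samples. WDR43, of the small-subunit processome, rose by 0.88 ± 0.05, and NPM1, UBTF, FBL and POLR1C were not called, at 0.04 to -0.18. Host genes of small nucleolar RNAs, whose spliced RNAs are removed when translated, rose in 12 of 21 and fell in 4. GAS5 was at 164, 165 and 154 CPM in control samples and 619, 623 and 617 CPM in deprived samples. SNHG32 was at 77.0, 79.8 and 78.8 CPM in control samples and 305, 310.4 and 298 CPM in deprived samples. The groups were apart for both, and SNHG7, SNHG19, SNHG4 and SNHG3 fell, at -0.32 to -0.80.

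Interferon-stimulated genes fell in 12 of 25 members and rose in 4, ISG20, USP18, IFI35 and IFIT5, by 0.27 to 1.46; only 1 of them was called with upper-quartile scaling. OAS3 went from 62.1 ± 1.60 to 37.8 ± 2.46 CPM and IFIT1 from 10.0 ± 1.60 to 2.71 ± 0.462 CPM. Class I antigen presentation fell in 11 of 15, TAPBP, which loads peptide, with -1.59 ± 0.069 and HLA-E with -0.76 ± 0.057, and ERAP1 and TAP2 rose by 0.24 to 0.45. Metallothioneins, cysteine-rich metal binders whose copies are hard to separate, rose in 3 of 4, MT2A and MT1X by 1.31 ± 0.061 and 1.21 ± 0.078. SLC39A10, a zinc importer, fell (log2 fold change -1.21 ± 0.069), and MTF1, the zinc sensor that drives metallothioneins, rose by 0.30 ± 0.06. In the network around MYC and the glucose sensor MondoA, ARRDC4, a MondoA target, went from 11.5 ± 1.72 to 61.9 ± 5.21 CPM, and MXD4 and MXD3, MYC antagonists, fell, at -0.46 to -1.25.

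A few genes had no counts in a group. FXYD4, a regulator of the sodium pump, had 52 estimated counts over the deprived samples and none over the controls, which is at least 14.8-fold higher when 3 counts over the group are taken as the limit. SPRR1B, an envelope protein of squamous cells, had 58 (at least 16.6-fold higher), and the noncoding RNA LINC01133 44 (at least 12.6-fold higher). IMPDH1P10, a processed pseudogene whose reads may belong to a related copy, had 47 (at least 13.4-fold higher), and the unnamed locus AC009093.4 80 (at least 22.8-fold higher). In the other direction AC019117.3 had 80 counts over the controls and none over deprived samples, at least 31.1-fold lower, and AC005332.5 57, at least 22.2-fold lower. By kind of gene, 32.1% of 13702 protein-coding genes rose and 29.6% fell, against 14.6% and 15.1% of 2165 long noncoding genes, which are lower in counts.

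The response at 24 h was then set against that at 48 h, which has its own controls. For 6048 genes (35.6%) the effect of deprivation differed between the times by the interaction test, higher at 48 h for 2787 and lower for 3261. At both times 3843 genes rose and 3626 fell, while 353 rose at 24 h and fell at 48 h and 169 did the reverse. Mitosis genes held the strongest change of sign: 28 of 47 rose at 24 h, all 47 fell at 48 h with a median of -3.16, and the interaction was lower for all 47. KIF20A, a cytokinesis motor, had -0.043 ± 0.058 at 24 h and -5.29 ± 0.083 at 48 h, the largest interaction among genes of the rule. CENPA, the centromere histone, HMMR, a spindle protein, and PIMREG rose at 24 h and fell at 48 h, as did DHRS2, a reductase, which went from 12.6 ± 0.842 to 40.1 ± 0.403 CPM at 24 h.

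Proteasome and heat shock genes turned the other way. The proteasome had 9 members up and 20 down of 33 at 24 h and 28 up and 2 down at 48 h, with a higher interaction for 32. PSMD2, a subunit of the cap, had -0.69 ± 0.058 at 24 h and 0.56 ± 0.058 at 48 h. Of 15 cytosolic heat shock genes 3 rose at 24 h and 11 at 48 h, and the interaction was higher for 12 and lower for 1. HSPA1B changed from -0.48 ± 0.10 to 1.36 ± 0.10. FLNC, CHAC1 and HMOX1 rose at both times and more at 48 h, to 2.89 ± 0.09, 4.83 ± 0.12 and 5.74 ± 0.093, and MAFG, a small MAF partner of NRF2, was not called at 24 h, with 0.37 ± 0.22, and had 2.08 ± 0.21 at 48 h. C/EBP factors did not follow this: the log2 fold change of CEBPD was 2.45 ± 0.17 at 24 h and 1.01 ± 0.16 at 48 h, and that of DDIT3 3.09 ± 0.08 and 2.24 ± 0.079.

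**Figure D5:**
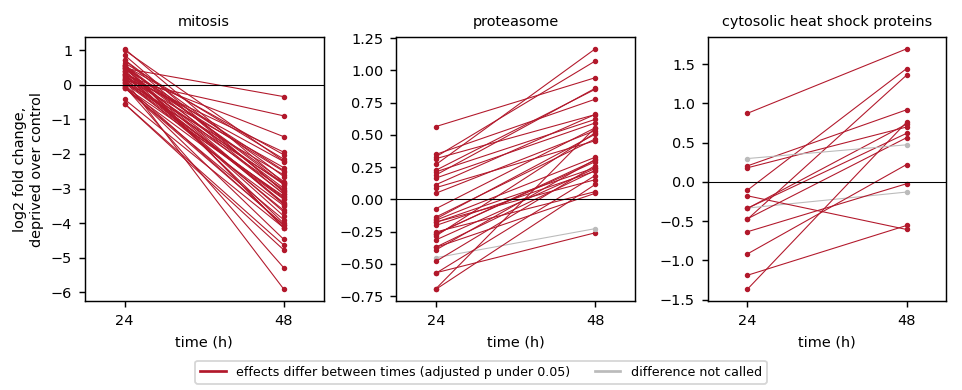
Log2 fold change of deprived over control at 24 h and at 48 h (time in h on the horizontal axis), 1 line per gene, for the mitosis, proteasome and cytosolic heat shock lists; red lines are genes whose effects differ between the times. All 47 mitosis lines end below 0, while 28 of 33 proteasome genes rose at 48 h.

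The label of colorectal carcinoma cells was checked against markers. KRT8, KRT18 and KRT19 and CDH1 and EPCAM were detected in every sample, while CDX1 was at 0 in all 6 and CEACAM5 at or near 0. Summed epithelial markers were 4299 to 4766 CPM in controls and 5811 to 5966 CPM in deprived samples, with 6 of 14 higher, led by CLDN7 and KLF5, and CLDN3, CLDN4 and KRT20 lower. Leukocyte markers summed to 4.97 to 5.63 CPM and 11.4 to 12.4 CPM. The rise was of CD68, a lysosomal protein, and PTPRC, CD3E, CD3D and TYROBP were at 0. Fibroblast markers summed to 37.3 to 40.5 and 24.8 to 29.0 CPM, mostly COL1A1, and endothelial markers to 52.3 to 58.9 and 39.5 to 40.0 CPM, mostly EGFL7. The haemoglobin transcripts HBA1 and HBA2 were at about 1 CPM or less.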

How the data were processed

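The authors deposited a table of estimated counts per gene, without normalization, per the file headers and the values, of which 14.2% are not whole. The submitters' processing notes name fastp, HISAT, RSEM and GRCh38, with no versions or roles; the annotation release and strandedness are not given in the sources used here. Without strand, reads of a gene and of its antisense or overlapping neighbour are not separable, and reads of near-identical copies are shared out by the estimation. Of 60987 rows, 316 without a gene name were left out. Counts were rounded, genes were kept by edgeR's filterByExpr (minimum count 10, minimum total 15) and scaled by TMM, and all 12 samples entered 1 edgeR 4.0.16 quasi-likelihood fit (R 4.3.3) of 4 group means, with Benjamini-Hochberg adjustment over 16994 genes and a threshold of 0.05. SE is the log2 fold change divided by the root of F. The biological coefficient of variation was 6.4%. Replicate pairs at 24 h differed by more than sampling noise (chi-square per degree of freedom 3.29 to 5.31). Steps were tested on simulated counts. Intervals cover counting error only.

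The members, lists and the rule for named genes were chosen with earlier results of these data known. The rule took the 12 largest rises and falls of at least 20 CPM with groups apart, the 8 largest CPM gains and losses, for each role described the 2 smallest adjusted p and members against the majority, genes at 0 in a group, and, for 48 h, the 5 largest interactions in each direction. Coordinates are from GENCODE 29, matched for 58453 named rows and not stated to be the authors' release. Of the tested genes 67% had a RefSeq promoter window. Shares in percent are given only for lists with at least 80% of members covered. The sterol list, at 75.7%, and the list of eIF2alpha kinase, eIF2, feedback and mTORC1 sensing genes, at 74.4%, have counts alone. The AP-1 site TGANTCA was also searched. It was in 9.37% of all genes with a window and in 5 of 46 growth factor signalling genes with one, a list with 79.3% of members covered. Alternatives were RLE, upper-quartile and total-count scaling, DESeq2 1.42.0, no filter, at least 5 CPM, a replicate block, only the 24 h samples, and leaving out each sample. Some genes the rule takes are not reported here.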

Additional observations from a re-analysis of the deposited data

Results flagged for a closer look

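What set these results apart is that the effect of deprivation differed between 24 h and 48 h by the interaction test of the edgeR fit, each time having its own controls. The effect differed for 6048 genes, 35.6% of those tested. It differed for 317 of the 529 tested genes that the text names, some of which were chosen for a large interaction or a small adjusted p, so that share is in part set by the choice. In what follows a value is the log2 effect at 48 h minus that at 24 h. Such a difference can lie in the controls, in the deprived samples or in both. Among genes taken by the naming rule the 5 largest positive differences were of FLNC, a filamin (1.84), the heat shock gene HSPA1B (1.84), the glutathione-cleaving CHAC1 (1.74), the haem oxygenase HMOX1 (1.70) and the small MAF factor MAFG (1.70). The 5 largest negative differences were of KIF20A, a cytokinesis motor (-5.25), the centromere histone CENPA (-4.72), the spindle gene HMMR (-4.66), PIMREG (-4.44) and the reductase DHRS2 (-4.43).

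Of the named genes 25 were called in opposite directions at the 2 times, HSPA1B, CENPA, HMMR, PIMREG and DHRS2 among them. Those lower at 24 h and higher at 48 h included PSMD2 of the proteasome cap (1.25), the chaperone gene HSP90AA1 (1.14) and the helicase genes MCM4 (0.86), MCM5 (0.99) and MCM6 (1.04). In lipid metabolism the carboxylase gene ACACA (0.50) and SREBF1 (0.50) turned the same way. So did CTNNB1, for beta-catenin (0.28), MYL6, a myosin light chain (0.33), and CITED2, a transcriptional coregulator (0.65). Those higher at 24 h and lower at 48 h included, in mitosis, CDC20 (-3.97) and UBE2C (-3.88). In replication they were RRM2 of ribonucleotide reductase (-1.93), CDC45 (-1.13), RFC3 (-0.95) and ORC6 (-0.76). Outside the cell cycle they were COQ2 of coenzyme Q synthesis (-1.42), the EGF receptor ligand AREG (-1.14), the desaturase gene FADS2 (-0.84) and the acyl-CoA synthetase gene ACSL5 (-0.72).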

How the results depend on the processing

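Of the counts of changed genes, a single alternative moved any by over 1.5 times: with only genes of at least 5 CPM, which tests fewer genes, 417 rose and 387 fell by at least 2-fold. Over the other settings with no sample left out, the number of genes changed at 24 h ranged from 8872 with DESeq2 to 9674 with only the 24 h samples in the fit. With upper-quartile scaling 4160 rose and 5300 fell. Leaving out 1 sample gave 8587 to 9709 changed genes, 4504 to 5017 higher and 4068 to 4692 lower, by at least 2-fold 777 to 834 higher and 994 to 1095 lower, and 5352 to 6032 genes whose effect differed between the times. Replicate numbers did not pair the samples, since the deviations of same-numbered samples at 24 h correlated at 0.0066, -0.0099 and 0.0307. With the number as a replicate block 9631 genes changed, 4998 higher and 4633 lower, 827 and 1051 by at least 2-fold, and 6329 differed between the times. That fit ended no call of a named gene and added 4.

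Of 501 called genes named in the text none reversed in a setting that tested it, and 51 lost the call in at least 1 of the 20, with a median absolute log2 fold change of 0.23. Of these, 47 lost it when a sample was left out, 21 under another scaling and 12 with DESeq2; the cause was not tested. With at least 5 CPM 496 and with only the 24 h samples 527 of the 529 named genes were tested. Those listed next changed by over 1 on the log2 scale and had group means of at most 2.20 CPM, that of KRT20 in controls. AKR1B10 lost the call under most settings, HBA1 without any of 5 samples at 24 h, NNT without control replicate 2 (-0.88) or 3 (-1.03) or deprived replicate 1 (-1.19) or 3 (-0.81), KRT20 without control replicate 1 (-0.85) or deprived replicate 1 (-1.03) or 3 (-0.86), AKR1C1 without deprived replicate 3 (1.00), HBA2 without deprived replicate 2 (-1.21), and GPX3 with DESeq2 and without control replicate 1 (-1.36) or 3 (-1.06) or deprived replicate 1 (-1.12) or 2 (-0.89). HBA1 went from -3.04 to -6.54 without deprived replicate 2. The others that lost it, with changes of at most 0.51 in size (SPRY1), were ASRGL1, ATG14, BCAT2, BCL2L12, BID, CCND3, CEBPA, CISD2, CLPP, CYFIP1, DSTN, DVL3, ETHE1, FECH, GCSH, GPAM, HSPA4, IFI35, IFIT5, ITGB5, JUNB, MAT2A, MCM10, MCM7, MGST1, MYL6, NDUFA6, NR1H2, NR1H3, PFKFB2, PMVK, PSMC1, PSMD6, SARS2, SESN1, SPRY1, SREBF1, TNFAIP3, TOB2, TXN, UROD, USP18, VARS2 and VKORC1L1. Among list counts, sterol genes that rose went from 4 to 1 without control replicate 1, mTORC1 sensing genes that fell from 8 to 5 without control replicate 3, and BCL2 family genes that fell from 4 to 2 without deprived replicate 2. Under upper-quartile scaling and library totals, mitosis genes that fell went from 3 to 5 and ERK feedback genes that fell from 5 to 8.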

Other observations

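Genes linked to quiescence, the resting state of cells outside the cycle, were not described above. Of 20 tested members 12 fell and 3 rose. KLHL24, a ubiquitin ligase adaptor, was at 68.1, 59.9 and 58.8 CPM in control samples and 28.4, 28.1 and 28.2 CPM in deprived samples. PNRC1, a nuclear receptor coregulator, was at 58.8, 56.8 and 62.3 CPM in control samples and 25.8, 22.1 and 25.5 CPM in deprived samples. Both were lower in each deprived sample. Of the YPEL family, small zinc-binding proteins, YPEL1, YPEL3 and YPEL2 fell, at -1.14 to -1.81, whereas YPEL5 was at 0.084 ± 0.066 and YPEL4 at -0.70 ± 0.41, without a call. The other direction was held by BTG1, an antiproliferative factor, which was at 34.6, 39.0 and 38.6 CPM in control samples and 100.3, 101 and 97.2 CPM in deprived samples, and by FOXO3 and TOB2. FOXO3, a forkhead factor of starved cells, rose by 0.55 ± 0.059, while its relatives FOXO4 and FOXO1 fell, with -0.83 ± 0.094 and -0.42 ± 0.084. TOB1, a paralog of TOB2, fell, with -0.60 ± 0.055. PIK3IP1, FBXO32 and HBP1 fell, at -0.44 to -1.62, as did CITED2, with -0.46 ± 0.081. BTG2, KLF9 and IRS2 were not called, at 0.0018 to 0.15.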
